A study of Mus musculus with 8 samples.

Results

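The glutathione synthesis and conjugation genes are 10 mouse genes taken by symbol, and all 10 were among the 20888 rows of the deposited expression table. They were selected on the expression differences that the KO and control libraries of this series showed, together with their place in the pathway. They comprise the synthesis genes Gclc, Gclm and Gss, the reductase gene Gsr, the glutathione transferase genes Gstm7, Gstp1, Mgst1, Mgst2 and Mgst3, and the epoxide hydrolase gene Ephx1. RNA-seq was made from T-ALL blasts, the leukaemic cells of T cell acute lymphoblastic leukaemia, sorted from peripheral blood. The 4 libraries labelled Kdm6b-KO came from mice with a homozygous mutant Kdm6b, a gene for a histone H3 lysine 27 demethylase, and the 4 control libraries from mice with wild-type Kdm6b. Mice of both groups carried Vav-CRE, a transgene that drives recombination across blood-forming cells. The kind of Kdm6b mutation and the way the leukaemia was induced are not given in the labels. The labels give no age and do not say whether the 4 libraries of a group came from separate mice, so errors and p-values cover only how far these libraries differ, some of which may be technical. By its title, the study asks whether KDM6B shields leukaemic T cells from stress that NOTCH1 causes.

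Glutathione is a small thiol peptide that cells use to reduce peroxides and to tag reactive compounds for export. It is made in a pair of steps, the joining of glutamate to cysteine and then the addition of glycine, and its oxidised form is returned to the reduced form with NADPH. Glutathione transferases join it to electrophiles, and many genes of the pathway are known targets of the transcription factor NRF2, which binds antioxidant response elements and is held in check by KEAP1.

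Estimated depth was 14018000 to 18244000 reads in the KO-labelled libraries and 18262000 to 22070000 reads in the control libraries. Every KO-labelled library was thus shallower than every control library, so effects of depth and of genotype cannot be told apart. Kdm6b itself was at 451 to 656 CPM (the authors' read counts scaled to library depth) in the KO-labelled libraries and at 323 to 629 CPM in the control libraries, which overlap. A gene-level value includes reads from exons that a mutation leaves in place, so the loss of Kdm6b could not be checked, and the mutant group is called KO-labelled here. Xist, the RNA that silences an X chromosome in female cells, was at 264 to 455 CPM in the KO-labelled libraries and at 0 to 0.831 CPM in the control libraries. The Y-linked gene Ddx3y was at 0.0714 to 0.548 CPM in the KO-labelled libraries and at 117 to 195 CPM in the control libraries, so effects of sex and of genotype cannot be told apart in any comparison here. T cell markers were present in all libraries: the summed level of 8 of them was 12666 to 14763 CPM in the KO-labelled libraries and 10448 to 14692 CPM in the control libraries. In bulk RNA, fewer cells of a type and less RNA per cell cannot be told apart.

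The 10 genes were chosen with the KO-labelled against control results of these libraries in view. Their differences between the groups are therefore given as a description, with no p-value. The log2 changes come from limma fitted to log2(CPM + 1) of all genes that passed a filter on low values, which kept genes reaching 1 CPM in 4 or more libraries. The filter left 13840 genes, and 10 of the 10 passed it.

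The conjugation genes Mgst1 and Gstm7 and the hydrolase gene Ephx1 were higher in every KO-labelled library than in every control library, the synthesis gene Gss was lower in every one, and the other 6 genes overlapped between the groups. Groups without overlap were found for 13.2% of the genes tested, 5.23% with the KO-labelled libraries higher and 7.97% with them lower. At a limma adjusted p below 0.05 over all genes, 3 of the 10 passed as higher (background 1.21%) and 1 as lower (background 2.32%), out of 3.53% of genes in either direction. These shares stand beside the counts only as a background, since the same contrast was known when the genes were chosen. The median log2 change of the 10 genes was 0.01, against -0.03 over all genes tested. Of the genes called, 321 of 488 were lower, and after quantile normalization 237 of 425 were.

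**Figure D1:**
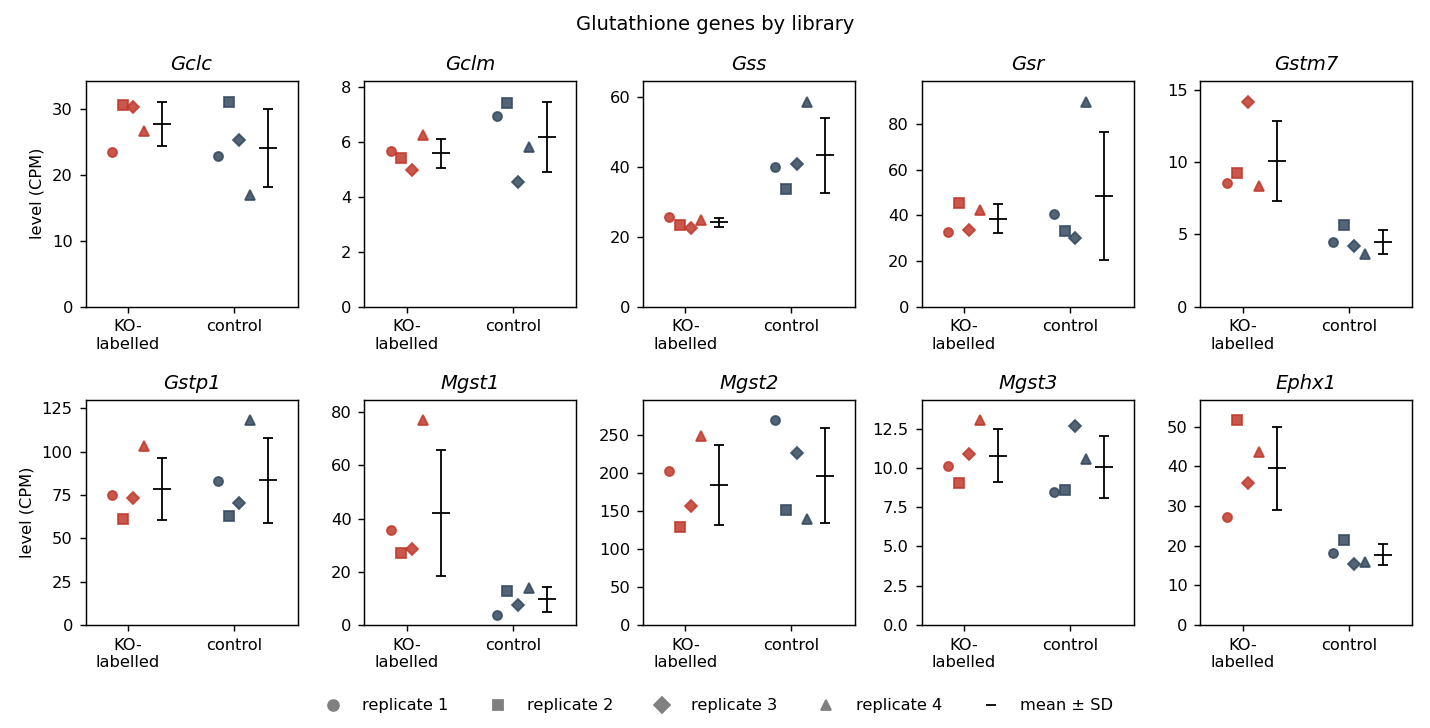
Level of each glutathione gene in CPM (linear axes from 0) in the 4 KO-labelled and 4 control libraries; each point is a library, and the bar is the mean ± SD. Mgst1, Gstm7 and Ephx1 lie wholly above the control points, from 26.9, 8.32 and 27.3 CPM upwards in the KO-labelled libraries, Gss lies wholly below them, and the other 6 genes overlap.

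The first step of synthesis is made by glutamate-cysteine ligase, whose catalytic subunit is encoded by Gclc (chromosome 9, 77754535 to 77794485, mm10). Gclc was at 23.6, 30.7, 30.4 and 26.8 CPM in KO-labelled replicates 1 to 4 and at 22.9, 31.2, 25.4 and 16.9 CPM in control replicates 1 to 4. The groups overlapped, and control replicates 2 and 4 held the highest and the lowest value of the 8 libraries. Gclc had a log2 change of 0.22 ± 0.19 (± is the limma standard error here and below for log2 changes) and a 95% interval of -0.18 to 0.63.

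Gclm (chromosome 3, 122245557 to 122270732) encodes the modifier subunit, which raises the efficiency of the catalytic one. It was at 5.67, 5.42, 4.99 and 6.25 CPM in the KO-labelled libraries and at 6.95, 7.44, 4.55 and 5.80 CPM in the control libraries. The KO-labelled values lay within the range of the control values, with a log2 change of -0.11 ± 0.20 (95% interval -0.54 to 0.32). The value of Gclm is uncertain, because its exons share 296 of 6291 bases with Gm17494 on the opposite strand and 244 with Gm6061 on the same strand, and the strand setting of the counting is not given in the sources used here. Gm17494 was at 91.3 to 128 CPM in the KO-labelled libraries and at 99.4 to 215 CPM in the control libraries.

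Gss (chromosome 2, 155563181 to 155592810) encodes glutathione synthetase, which adds the glycine. It was at 25.6, 23.4, 22.6 and 24.7 CPM in the KO-labelled libraries and at 40.0, 33.6, 40.9 and 58.6 CPM in the control libraries. The highest KO-labelled library lay below the lowest control library, and the KO-labelled libraries were closely spaced. The means were 24.1 ± 1.32 CPM in the KO-labelled libraries and 43.3 ± 10.7 CPM in the control libraries (SD, n = 4 each), a log2 change of -0.79 ± 0.17. Without control replicate 4, which had the highest value, the control mean was 38.2 CPM and the log2 change -0.64. Exons of Gss overlap Acss2 and the antisense genes Gssos1 and Gssos2, by at most 395 of 5915 bases for any of them. The value of Gss is therefore uncertain as well, since the strand setting is not known. Of the 50-base words in its transcripts, 10.3% occur in transcripts of another gene. Acss2 was at 38.1 to 47.7 CPM in the KO-labelled libraries and at 32.6 to 65.1 CPM in the control libraries, which overlap.

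Gsr (chromosome 8, 33652523 to 33698163) encodes glutathione reductase, the enzyme that restores reduced glutathione. It was at 32.6, 45.4, 33.8 and 42.3 CPM in the KO-labelled libraries and at 40.6, 33.1, 30.3 and 90.1 CPM in the control libraries. Control replicate 4 stood far above the other 7 libraries, which lay between 30.3 and 45.4 CPM. The log2 change was -0.20 ± 0.29 with all libraries and 0.14 without control replicate 4, so no direction held.

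Mgst1 (chromosome 6, 138140316 to 138156755) encodes a membrane-bound transferase of the endoplasmic reticulum and outer mitochondrial membrane that also reduces lipid peroxides. It was at 35.6, 26.9, 28.4 and 77.0 CPM in KO-labelled replicates 1 to 4 and at 3.89, 13.0, 7.54 and 14.0 CPM in control replicates 1 to 4. All KO-labelled libraries were above all control libraries, and KO-labelled replicate 4 was far above the others. The mean was 42.0 ± 23.6 CPM in the KO-labelled libraries and 9.59 ± 4.74 CPM in the control libraries, 4.38-fold higher, with a log2 change of 2.02 ± 0.39 (95% interval 1.16 to 2.87). Without KO-labelled replicate 4 the KO-labelled mean was 30.3 CPM and the log2 change 1.69.

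In Mgst2 and Mgst3, its relatives, the groups overlapped. Mgst2 (chromosome 3, 51660360 to 51682677), which encodes an enzyme able to make leukotriene C4, was at 203, 129, 156 and 249 CPM in the KO-labelled libraries and at 270, 151, 227 and 139 CPM in the control libraries. Both groups spanned nearly the same range. Mgst3 (chromosome 1, 167371966 to 167393841), another membrane-bound transferase gene, was at 10.1, 9.06, 10.9 and 13.0 CPM in the KO-labelled libraries and at 8.43, 8.58, 12.7 and 10.6 CPM in the control libraries. The log2 changes were -0.09 ± 0.24 for Mgst2 (95% interval -0.62 to 0.45) and 0.10 ± 0.19 for Mgst3 (95% interval -0.32 to 0.51).

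Gstm7 (chromosome 3, 107926334 to 107931817) encodes a soluble transferase of the mu class. It was at 8.57, 9.27, 14.2 and 8.32 CPM in the KO-labelled libraries and at 4.49, 5.62, 4.19 and 3.62 CPM in the control libraries. The groups did not overlap, and KO-labelled replicate 3 was the highest. Its mean was 10.1 ± 2.77 CPM in the KO-labelled libraries and 4.48 ± 0.839 CPM in the control libraries, 2.25-fold higher. The log2 change was 1.0 ± 0.21 (95% interval 0.53 to 1.47), and 0.66 with a pseudocount of 5. Of the 50-base words in its transcripts, 0.532% occur in transcripts of another gene.

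Gstp1 (chromosome 19, 4035407 to 4037985), of the pi class, was at 75.1, 61.0, 73.4 and 103 CPM in the KO-labelled libraries and at 82.8, 62.7, 70.6 and 118 CPM in the control libraries. The groups overlapped, and replicate 4 was the highest in both. The log2 change was -0.08 ± 0.21 (95% interval -0.53 to 0.37). Its near-identical copy Gstp2 shares 33.7% of the 50-base words of Gstp1, so the split of reads between them is uncertain. Gstp2 was at most at 0.272 CPM in the KO-labelled libraries and at most at 0.288 CPM in the control libraries.

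Ephx1 (chromosome 1, 180976210 to 181020904) encodes microsomal epoxide hydrolase, which opens the epoxides that transferases also detoxify. It was at 27.3, 51.7, 35.7 and 43.6 CPM in the KO-labelled libraries and at 18.3, 21.3, 15.3 and 16.0 CPM in the control libraries. The groups did not overlap, and KO-labelled replicate 1 came nearest to the control libraries. The mean was 39.6 ± 10.5 CPM in the KO-labelled libraries and 17.7 ± 2.71 CPM in the control libraries, 2.23-fold higher, with a log2 change of 1.09 ± 0.20 (95% interval 0.65 to 1.52). Its exons share 72 of 1950 bases with Gm36961 on the same strand.

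**Figure D2:**
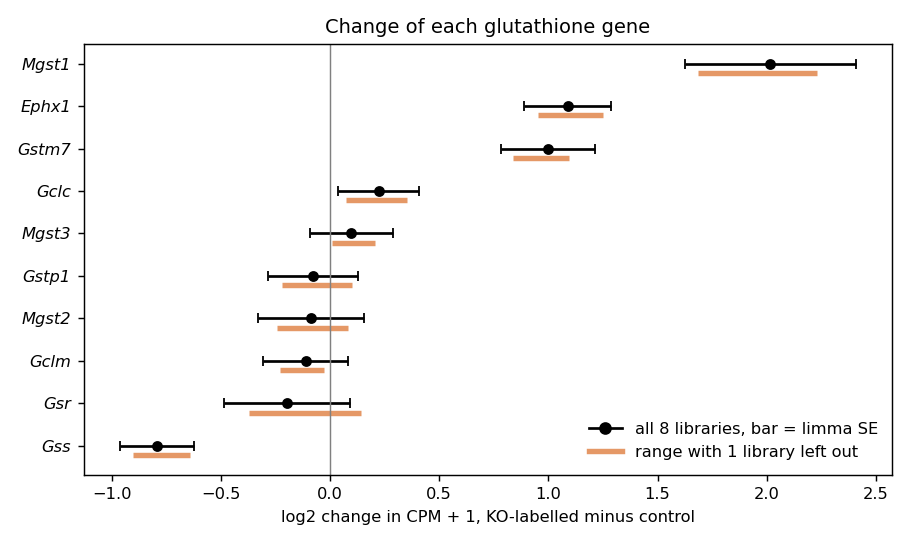
Log2 change of each gene, KO-labelled minus control, on the log2(CPM + 1) scale; points and black bars are the change and its limma standard error with all 8 libraries, and orange bars the range when 1 library is left out. Mgst1 (2.02), Ephx1 (1.09), Gstm7 (1.0) and Gss (-0.79) kept their sign in every fit, as did Gclc, Gclm and Mgst3. The orange bars of Gstp1, Mgst2 and Gsr cross 0.

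The authors' deposited table of genes past a 2-fold change and a false discovery rate of 0.05, per the file headers, held 3 of the 10 genes, among 218 listed (1.04% of the rows). In the authors' deposited table, the signed fold is given as control over knockout, so that negative values are higher in the knockout. It was -4.38 for Mgst1, -2.25 for Gstm7 and -2.23 for Ephx1 in the authors' deposited table. These values come from the same libraries and the same contrast on which the 10 genes were chosen. Their presence in the list therefore lends them no support.

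The sign of the change of Mgst1, Gstm7, Ephx1 and Gss was kept in all 17 other settings tried, but the calls were not. Since their groups do not overlap, leaving out 1 library could not reverse that sign. The sign was also kept in all 17 for Gclc, Gclm and Mgst3, whose groups overlapped, so it does not set the 4 genes apart. With control replicate 2 or 4 left out all 4 were called. Without KO-labelled replicate 3 the genes called were Mgst1 and Ephx1, and without KO-labelled replicate 1 only Ephx1 was. Without KO-labelled replicate 2 or 4, or without control replicate 1 or 3, 0 of the 10 passed by limma. In each of these fits 4 had an unadjusted p below 0.05, which lends them no support because they were chosen on this contrast; with all libraries, 19.3% of all genes tested had one. Without a filter on low values Gstm7 was not called, among 20888 genes tested.

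The libraries that were highest differed from gene to gene. Among the KO-labelled libraries, Mgst1 was highest in replicate 4, Ephx1 in replicate 2 and Gstm7 in replicate 3. Among the control libraries, replicate 4 was the highest for Gss, Gsr, Gstp1 and Mgst1 and the lowest for Gclc, Gstm7 and Mgst2. On the log2 scale control replicate 4 lay 1.12 above the mean of its gene for Gsr and 0.57 below it for Gclc.

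**Figure D3:**
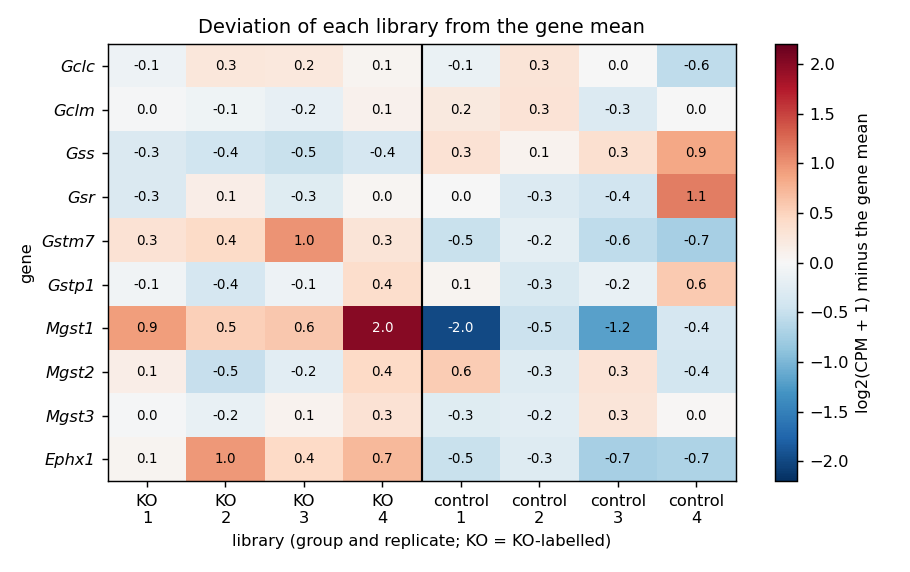
Deviation of each library from the mean of the gene over the 8 libraries, in log2(CPM + 1), with KO-labelled libraries left of the line and control libraries right of it. Mgst1 is lowest in control replicate 1 (-1.99) and highest in KO-labelled replicate 4, and Gsr reaches 1.12 in control replicate 4.

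Levels can be set beside each other between genes only per length. Divided by the exon length in the GENCODE vM21 annotation, Gstp1 and Mgst2 were the highest of the 10 in both groups. Gstp1 was at 50.5 ± 11.6 CPM per kb in the KO-labelled libraries and 54.0 ± 15.9 CPM per kb in the control libraries, and Mgst2 at 49.7 ± 14.3 and 53.1 ± 16.8 CPM per kb in the same groups (SD, n = 4 each), so their order did not exceed the spread. By its mean, Mgst1 was the third in the KO-labelled libraries, at 20.9 ± 11.7 CPM per kb, and the eighth in the control libraries, at 4.77 ± 2.36 CPM per kb. Ephx1 was next in the KO-labelled libraries, at 20.3 ± 5.37 CPM per kb, and at 9.10 ± 1.39 CPM per kb in the control libraries, where it lay close to Mgst3 at 9.17 ± 1.81 CPM per kb. Gsr followed in the KO-labelled libraries, at 14.0 ± 2.30 CPM per kb. The place of Mgst1 before Ephx1 and Gsr did not exceed the spread. Of the synthesis genes, Gclc was at 7.39 ± 0.892 CPM per kb in the KO-labelled libraries and 6.40 ± 1.57 CPM per kb in the control libraries. In the control libraries the order of Gclc and Mgst1 did not exceed the spread either. Gss was at 4.07 ± 0.223 CPM per kb in the KO-labelled libraries and 7.32 ± 1.82 CPM per kb in the control libraries. Gclm had the lowest level of the 10 per length in both groups, 0.887 ± 0.0838 CPM per kb in the KO-labelled libraries and 0.983 ± 0.205 CPM per kb in the control libraries.

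Promoter windows are shown because Mgst1 and Gstm7 were higher in the KO-labelled libraries while Gclm and Gstp1 overlapped between the groups, and all 4 windows hold a motif of a stress-responsive factor. They are RefSeq sequences of build GRCm38.p6, from 250 bases before to 50 bases after a transcription start, written 5′ to 3′ on the strand of the gene, with motif matches in capitals. The windows are chr6:138140277-138140576 on the plus strand for Mgst1, chr3:107931565-107931864 on the minus strand for Gstm7, chr3:122245307-122245606 on the plus strand for Gclm and chr19:4037863-4038162 on the minus strand for Gstp1.
Mgst1: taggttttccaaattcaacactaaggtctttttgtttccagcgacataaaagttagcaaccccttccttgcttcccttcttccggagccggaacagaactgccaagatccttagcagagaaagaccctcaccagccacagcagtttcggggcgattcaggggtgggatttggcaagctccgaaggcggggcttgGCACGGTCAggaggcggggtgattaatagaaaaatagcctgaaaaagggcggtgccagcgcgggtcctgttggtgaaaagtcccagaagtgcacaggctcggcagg
Gstm7: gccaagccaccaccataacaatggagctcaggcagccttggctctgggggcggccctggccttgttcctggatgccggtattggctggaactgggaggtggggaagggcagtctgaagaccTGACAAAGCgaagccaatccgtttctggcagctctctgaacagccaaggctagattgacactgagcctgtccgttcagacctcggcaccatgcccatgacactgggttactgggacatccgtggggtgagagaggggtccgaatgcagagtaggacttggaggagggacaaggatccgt
Gclm: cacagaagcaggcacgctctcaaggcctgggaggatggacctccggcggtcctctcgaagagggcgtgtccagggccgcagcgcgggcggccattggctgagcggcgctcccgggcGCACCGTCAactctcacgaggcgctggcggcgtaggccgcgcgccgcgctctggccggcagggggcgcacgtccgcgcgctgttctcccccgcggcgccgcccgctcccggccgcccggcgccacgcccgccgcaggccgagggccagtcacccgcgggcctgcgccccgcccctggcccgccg
Gstp1: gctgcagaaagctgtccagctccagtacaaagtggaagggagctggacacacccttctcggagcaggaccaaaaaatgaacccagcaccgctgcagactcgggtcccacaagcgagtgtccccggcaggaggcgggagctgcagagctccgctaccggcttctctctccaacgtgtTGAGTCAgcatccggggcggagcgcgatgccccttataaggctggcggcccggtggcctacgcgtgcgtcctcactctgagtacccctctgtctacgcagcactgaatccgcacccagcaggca

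The motif TGACNNNGC, the core of the antioxidant response element, was searched on both strands, as was TGANTCA, the site of the factor AP-1. A sequence can match both where they overlap, but no match in the 10 genes did. Of the 10 genes, 8 matched a RefSeq promoter, with 10 windows in all, and Gclc and Gsr did not. TGACNNNGC was in windows of 3 of the 8, Mgst1, Gstm7 and Gclm, against 14.0% of the 27025 genes in the table (12.4% of its 32851 windows). Distances are from the transcription start of the window printed. In Mgst1 the match lies 48 to 56 bases before it, in Gclm 126 to 134 and in Gstm7 121 to 129. The Mgst1 and Gclm matches are on the strand opposite to the gene. Mgst1 and Gstm7 each have another window, chr6:138141337-138141636 and chr3:107931768-107932067, and these hold neither motif. The other Gstm7 window spans the upstream end of the annotated gene. The Mgst1 and Gstm7 matches lie inside the gene bounds given above. TGANTCA was in windows of 2 of the 8, Mgst2 and Gstp1, against 8.97% of genes (7.81% of windows), and in Gstp1 it lies 68 to 74 bases before the start. The letters in Gstp1 run on as TGAGTCAgc, which departs from TGACNNNGC only by a G in place of the C. The search therefore cannot show that Gstp1 lacks an antioxidant response element. Ephx1 and Gss, which had no overlap between the groups, held neither motif in this window, and Gclm, which held one, did overlap. A match is a description of letters and not evidence of binding.

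The other genes of the pathway were taken as 6 lists, each written as a pathway group with earlier results of these data known. Together the lists hold 85 genes, of which 74 had a row in the table and 57 were tested. Of these, 1 rose and 1 fell by limma (3.51% of the 57, against 3.53% of all genes). Unadjusted p was below 0.05 for 9 of the 57, against 19.3% of all genes, and the median log2 change was -0.09, against -0.03 over all genes. The malic enzyme gene Me1 and the NRF2 inhibitor gene Keap1 were the genes called.

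Me1, which encodes a cytosolic enzyme that makes the NADPH used to reduce glutathione, was at 7.05 to 12.9 CPM in the KO-labelled libraries and at 1.77 to 5.0 CPM in the control libraries. It rose in the KO-labelled libraries, 4 of 4 above all controls (log2 change 1.33 ± 0.28, limma adjusted p = 0.0262). Its call was lost without KO-labelled replicate 1, 2 or 3 or control replicate 1 or 3 (adjusted p 0.00345 to 0.0958 over all settings). Keap1, which encodes the adaptor that marks NRF2 for destruction, was at 42.6 to 59.4 CPM in the KO-labelled libraries and at 76.2 to 84.7 CPM in the control libraries. It fell in the KO-labelled libraries, 4 of 4 below all controls (log2 change -0.60 ± 0.13, limma adjusted p = 0.0297). Its call was lost without KO-labelled replicate 1, 2 or 4, without control replicate 1 or 3, and without the mean-variance trend (adjusted p 0.00782 to 0.105 over all settings).

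In the list of NRF2 and its regulators and targets, which holds both genes, 1 of 14 tested rose, 1 fell and 12 were not called. Unadjusted p was below 0.05 for 4 of the 14, and the median log2 change of the list was -0.11. Of all genes tested, 1.21% rose, 2.32% fell and 19.3% had an unadjusted p below 0.05. Other genes of the list are named after their values were seen. Txnrd1, the thioredoxin reductase gene and an NRF2 target, was at 30.3, 40.0, 41.2 and 36.7 CPM in the KO-labelled libraries and at 54.6, 45.0, 46.2 and 56.5 CPM in the control libraries (log2 change -0.44 ± 0.14, limma adjusted p = 0.112). Nfe2l2, which encodes NRF2, was at 62.7 to 78.0 CPM in the KO-labelled libraries and at 81.8 to 87.2 CPM in the control libraries (limma adjusted p = 0.296). Mafg, which encodes a DNA-binding partner of NRF2, was at 26.6 to 32.3 CPM in the KO-labelled libraries and at 32.5 to 45.0 CPM in the control libraries (limma adjusted p = 0.255). In these genes all 4 KO-labelled libraries lay below all control libraries (background 7.97%), while the change did not pass the threshold. The other tested genes of the list, apart from Me1 and Keap1, overlapped between the groups. Of these, Maff, Osgin1, Ftl1, Fth1 and Taldo1 had higher means in the KO-labelled libraries, and Bach1, Mafk, Hmox1 and Tkt lower ones. The NRF2 targets Nqo1 and Srxn1 were below the filter, at no more than 0.329 CPM in any KO-labelled library and 0.493 CPM in any control library. In the NADPH supply list 1 of 7 rose (background 1.21%), and 6 were not called (median -0.14). The gene that rose was Me1, already counted in the NRF2 list.

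In the remaining 4 lists limma called 0 genes (background 3.53%). The other transferases numbered 11 tested, with 2 at an unadjusted p below 0.05 (background 19.3%) and a median log2 change of -0.21. Gstz1, an enzyme gene of tyrosine breakdown, was at 9.70 ± 1.66 CPM in the KO-labelled libraries and 15.2 ± 2.90 CPM in the control libraries (limma adjusted p = 0.111), and Gstt2, of the theta class, at 38.4 ± 3.23 and 46.5 ± 2.66 CPM in the same groups (limma adjusted p = 0.245). Neither overlapped between the groups, both lower in the KO-labelled libraries in 4 of 4 (background 7.97%). All other tested genes of this list overlapped. With array weights Gstz1 was called (adjusted p = 0.0438).

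Peroxidases and glutaredoxins numbered 7 tested, 0 of them at an unadjusted p below 0.05 (background 19.3%, median -0.01). Gpx4, which encodes the peroxidase that repairs oxidised membrane lipids, was at 74.8 ± 15.3 CPM in the KO-labelled libraries and 62.0 ± 3.30 CPM in the control libraries (limma adjusted p = 0.382). Glrx2, a mitochondrial glutaredoxin gene, was at 42.8 ± 5.37 and 38.3 ± 4.90 CPM in the same groups (limma adjusted p = 0.586). In both genes the groups overlapped.

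Cysteine supply, turnover and export numbered 13 tested, with 2 at an unadjusted p below 0.05 (background 19.3%, median -0.08). Ggct, which encodes an enzyme that breaks down gamma-glutamyl peptides, was at 9.16 ± 2.21 and 6.23 ± 1.34 CPM in the KO-labelled and control libraries (limma adjusted p = 0.238). Slc7a11, the cystine importer gene, named after its values were seen, was at 16.0 to 24.8 CPM in the KO-labelled libraries and at 37.5, 28.5, 39.1 and 9.97 CPM in control replicates 1 to 4. The overlap came from control replicate 4, and without it Slc7a11 passed limma's adjusted threshold as lower in the KO-labelled libraries.

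The glutathione-dependent, epoxide and carbonyl detoxification list numbered 6 tested, 0 of them at an unadjusted p below 0.05 (background 19.3%, median -0.04). Glo1, which encodes the first enzyme of methylglyoxal removal, was at 97.4 ± 11.5 CPM in the KO-labelled libraries and 109 ± 7.49 CPM in the control libraries (limma adjusted p = 0.480). Cbr1, a carbonyl reductase gene, was at 54.9 ± 6.98 and 48.7 ± 5.77 CPM in the same groups (limma adjusted p = 0.532). Ephx2, the soluble relative of Ephx1, was not among the genes that passed the filter.

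**Figure D4:**
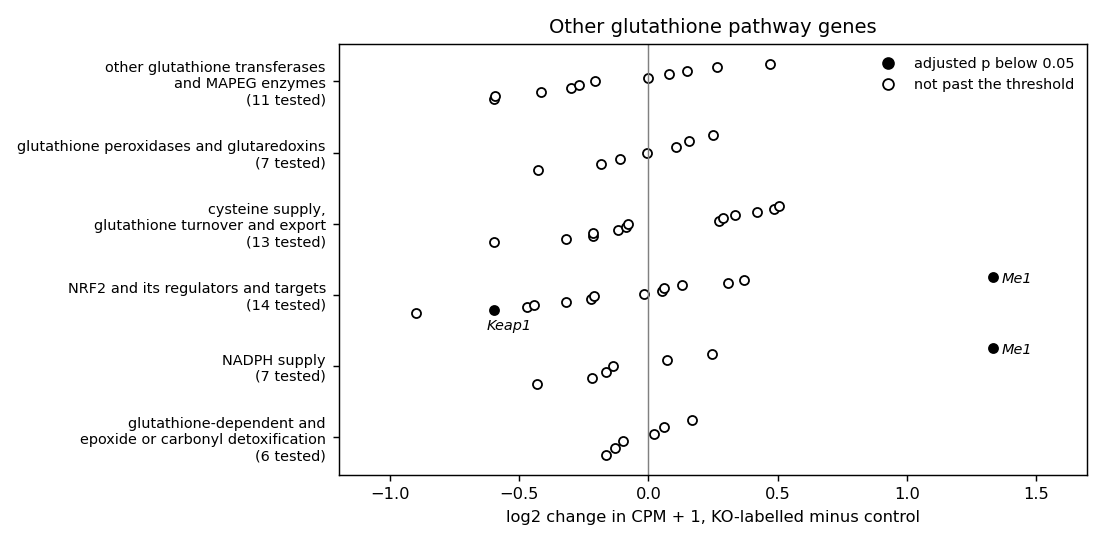
Log2 change, KO-labelled minus control, of each tested gene in the 6 lists of other glutathione pathway genes; filled points passed a limma adjusted p below 0.05 and open points did not, and vertical position within a list only separates points. Me1 (1.33), which is in 2 lists, and Keap1 (-0.60) are the filled points.

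Of 46 markers of blood and stromal cell types in 9 lists, 31 were tested; 0 passed limma's adjusted threshold, and 6 had an unadjusted p below 0.05, against 19.3% of all genes. The sum of the 6 neutrophil and granulocyte precursor markers was 87.3, 49.4, 148 and 253 CPM in KO-labelled replicates 1 to 4 and 62.2, 59.3, 27.4 and 70.1 CPM in control replicates 1 to 4. KO-labelled replicate 4 was the highest in this sum and in Mgst1. KO-labelled replicate 2 had a sum within the range of the control libraries while its Mgst1 level, 26.9 CPM, was above the highest control level of 14.0 CPM. Of the 6 markers, S100a9 alone did not overlap between the groups (background 5.23% with the KO-labelled libraries higher). It was at 8.35 CPM in KO-labelled replicate 2, the lowest of its group, and at 1.36 to 6.71 CPM in the control libraries (limma adjusted p = 0.0864). Of the 6 markers 0 were at 0 in all libraries, and 3 were at an unadjusted p below 0.05, S100a8 and S100a9 with a higher mean in the KO-labelled libraries and Mpo with a lower one. Ngp, a neutrophil granule gene, was at 22.3 to 92.4 CPM in the KO-labelled libraries and at 7.43 to 32 CPM in the control libraries, and the calcium-binding protein gene S100a8 at 12.3 to 77.8 and 3.09 to 14.9 CPM in the same groups. Ltf, named after its values were seen, was at 15.5, 5.06, 29.4 and 40.9 CPM in KO-labelled replicates 1 to 4. In control replicates 1 to 4 it was at 7.06, 12.5, 4.76 and 10.1 CPM. Ngp, S100a8 and Ltf had higher means in the KO-labelled libraries, with overlap. The precursor granule genes, named after their values were seen, had lower means in the KO-labelled libraries, with overlap. Mpo, the myeloperoxidase gene, was at 3.42, 0.214, 0.548 and 0 CPM in KO-labelled replicates 1 to 4 and at 4.65, 0.312, 6.33 and 4.31 CPM in control replicates 1 to 4. Elane, the neutrophil elastase gene, was at 4.56, 1.21, 0 and 0.282 CPM in the KO-labelled libraries and at 4.93, 0, 4.45 and 2.58 CPM in the control libraries. In KO-labelled replicate 4, where Mgst1 and the sum were highest, Mpo was thus listed at 0. The part of these markers in the level of Mgst1 was not tested.

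**Figure D5:**
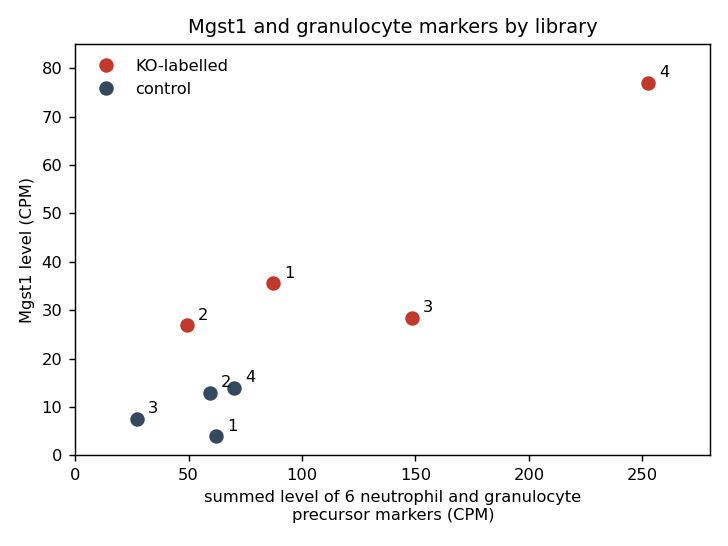
Level of Mgst1 (CPM) against the summed level of 6 neutrophil and granulocyte precursor markers (CPM) in each library, with KO-labelled libraries in red, control libraries in dark blue and the replicate number beside each point; both axes are linear. KO-labelled replicate 4 is highest on both axes (253 and 77.0 CPM), and KO-labelled replicate 2 has a marker sum of 49.4 CPM, within the range of the control libraries. Of the markers summed, S100a9 was at 8.35 CPM in KO-labelled replicate 2, above all control libraries.

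The sums of all 9 marker lists overlapped between the groups, and the other 8 are given with their most abundant members. The T cell receptor kinase gene Lck was at 3468 to 4352 CPM in the KO-labelled libraries and 3372 to 4133 CPM in the control libraries, and Cd3e, a chain of the T cell receptor complex, at 2263 to 2532 CPM in the KO-labelled libraries and 1944 to 2240 CPM in the control libraries. Of the 8 T cell markers, 4 (Cd3e, Cd3d, Cd3g and Cd2) were higher in every KO-labelled library than in every control library (background 5.23%), and the smallest limma adjusted p among them was 0.130, for Cd3g. The others, Lck, Cd4, Cd8a and Cd8b1, overlapped. Lck had a higher mean in the KO-labelled libraries, and Cd4, Cd8a and Cd8b1 had lower ones. Control replicate 4 held the lowest T cell sum. It was also the lowest of all libraries in Cd4, Cd8a and Cd8b1, at 771, 950 and 1204 CPM. Monocyte and macrophage markers summed to 40.7 to 103 CPM in the KO-labelled libraries and 55.4 to 247 CPM in the control libraries. The lysozyme gene Lyz2 was at 32.5 to 79.3 CPM in the KO-labelled libraries and 40.5 to 185 CPM in the control libraries, and the receptor gene Csf1r at 2.87 to 11.2 CPM in the KO-labelled libraries and 7.34 to 28.0 CPM in the control libraries. Control replicate 2 held the highest monocyte sum.

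Erythroid markers summed to 148 to 871 CPM in the KO-labelled libraries and 56.6 to 1168 CPM in the control libraries. The globin genes Hba-a2 and Hbb-bs led them, Hba-a2 at 49.4 to 316 CPM in the KO-labelled libraries and 16.2 to 390.1 CPM in the control libraries and Hbb-bs at 47.9 to 288 CPM in the KO-labelled libraries and 19.6 to 397 CPM in the control libraries. The highest erythroid sums were in KO-labelled replicate 4 and control replicate 2. Stromal, endothelial and epithelial markers summed to 138 to 177 CPM in the KO-labelled libraries and 150.2 to 207 CPM in the control libraries, nearly all of it Pecam1, a gene that leukocytes also express, while the collagen gene Col1a1 did not exceed 3.56 CPM in the KO-labelled libraries and 1.64 CPM in the control libraries.

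The 4 remaining lists were low. B cell markers, mostly Cd79b with little Cd79a, summed to at most 19.3 CPM in the KO-labelled libraries and 17.1 CPM in the control libraries. NK cell markers, mostly Klrb1c with little Ncr1, reached 36.2 CPM in the KO-labelled libraries and 20.02 CPM in the control libraries. Mast cell and basophil markers, led by Kit and Mcpt8, reached 12.1 CPM in the KO-labelled libraries and 5.77 CPM in the control libraries. Platelet and megakaryocyte markers, led by Itga2b and Pf4, reached 6.63 CPM in the KO-labelled libraries and 3.28 CPM in the control libraries. The part of these cell types in the glutathione genes was not tested.

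The genes with the pattern most like Mgst1 were found by the mean absolute difference, over the 8 libraries, of log2(CPM + 1) minus the gene mean. They were Cdk5rap1 at 0.281, Izumo1r at 0.408 and the predicted gene Gm46432 at 0.438. Cdk5rap1, which encodes a tRNA-modifying enzyme, was at 28.6, 25, 26.1 and 58.9 CPM in KO-labelled replicates 1 to 4 and at 6.57, 7.33, 7.43 and 10.2 CPM in control replicates 1 to 4. As for Mgst1, replicate 4 was the highest in both groups. The genes closest to Gclc were Pex26 at 0.0424, Tubb2b at 0.0696 and Midn at 0.0702. Pex26, a peroxisome assembly gene, was at 35.4 to 44.2 CPM in the KO-labelled libraries and at 23.7 to 43.9 CPM in the control libraries, which overlap. Likeness over 8 libraries says nothing of shared function.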

How the data were processed

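RNA-seq was measured in 4 KO-labelled and 4 control libraries. Per the labels' protocols, a NucleoSpin XS kit gave the RNA and a SMARTer Ultra Low kit the libraries. STAR (version 2.7.3a), Partek (version 10.0.22.0524) and mm10 appear in the submitters' processing notes. For annotation, counter and strand option, the sources used here name none. The deposited values are CPM, normalized by the authors in Partek per the file headers, for 20888 genes, with 0.0001 added to each value, which was subtracted here. A deposited list of 218 genes gives a signed fold, here treated as a score of the authors, of control over knockout. Its CPM values did not differ from those of the table of all genes. Gene descriptions in that table did not always belong to the symbol beside them, so only symbols were used.

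Depth was estimated from the CPM worth of 1 read. Below 2 CPM, 74.1% to 76.3% of values were whole multiples of it within 0.02 reads. Reads could therefore not be recovered, and count models were left out. Genes that reached 1 CPM in 4 or more of the 8 libraries were tested with limma (version 3.58.1, R 4.3.3) on log2(CPM + 1), with a mean-variance trend, for the two-sided difference of KO-labelled minus control libraries, with Benjamini-Hochberg adjustment over 13840 genes and a threshold of 0.05. The scale understates changes of low genes. The test was checked on simulated data.

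The 10 genes, the pathway lists and the marker lists were chosen with earlier results of these data known. Named are all 10 genes, from each pathway list up to 4 called genes or else the 2 with the lowest p, from each marker list the 2 most abundant, and the 3 genes nearest in pattern to Mgst1 and to Gclc; 1 gene that this rule names is not reported here. Exon lengths, overlaps and transcript words are from GENCODE vM21 (mm10), not necessarily the authors' annotation, and promoters are from RefSeq. Alternatives were other pseudocounts (0.1 and 5), filters, scalings, weights, a replicate block and leaving out each library.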

Additional observations from a re-analysis of the deposited data

Results flagged for a closer look

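Of 42 groups of 4 libraries checked, over the named genes and Kdm6b, 1 had a library far from the others. Chance alone flags about 5% of such groups. It was Kdm6b in KO-labelled replicate 4, at 451 CPM, below the other 3 KO-labelled libraries, and the gap to the nearest of them was 0.844 of the range of the group on the log2 scale.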

How the results depend on the processing

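Counts of calls moved with array weights and with the libraries used. Leaving out 1 library gave 81 to 670 called genes overall against 488 with all libraries, 0 to 4 of the 10 glutathione genes against 4, and 0 to 3 of the other pathway genes against 2. Array weights gave 1313 called genes overall and 4 of the other pathway genes, and without the mean-variance trend 1 of the other pathway genes was called. Fits that leave out a library have fewer samples; otherwise the cause was not tested. With the replicate number as a block, 509 genes, 4 of the 10 and 3 of the other pathway genes were called. The labels do not say whether equal numbers pair the libraries. The correlations of same-numbered libraries after removing group means were 0.149, 0.0652, -0.102 and 0.176, and KO-labelled replicate 1 was closer to control replicate 3 (0.355). These correlations do not settle whether the libraries were paired. The log2 change of Mgst1 ran between 1.64 and 2.23, that of Gstm7 between 0.66 and 1.14, that of Ephx1 between 0.95 and 1.25 and that of Gss between -0.90 and -0.64 over the 17 alternatives. Genes near 1 CPM are limited by depth, since 3 reads are worth 0.136 to 0.214 CPM, which covers counting error only.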
